A study of Homo sapiens with 8 samples.

Results

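The 10 genes DUSP1, DUSP4, DUSP5, DUSP6, DUSP7, DUSP8, SPRY1, SPRY2, SPRY4 and SPRED1 encode brakes on the ERK kinase pathway. They were chosen by gene family from the 58787 gene identifiers of the count table, at a time when CR31B against DMSO differences in these libraries were known (that of DUSP6 among them). Their differences between treatments are therefore a description, without a test. Each symbol matched 1 identifier, and all 10 passed the filter on low counts.

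ERK is the last kinase of a chain that runs from growth factor receptors through RAS, RAF and MEK. Active ERK switches on genes whose products then shut the chain down again, so the messenger RNA of several of these genes is widely used as a gauge of ERK signalling. DUSP proteins of this family are phosphatases that remove the activating phosphates from ERK, JNK and p38. Sprouty proteins and SPRED1 act higher up, between the receptor and RAF, and SPRED1 brings the RAS inactivator neurofibromin to the membrane.

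Transcripts were counted by RNA sequencing of IMR32, a human neuroblastoma cell line in long use whose MYCN gene is amplified. The line was treated for 6 h with the vehicle, 0.1% DMSO, or with CR31B at its IC50; the concentration is not given in the sources used here. CR31B is a rocaglate, a compound that clamps the RNA helicase eIF4A and so blocks translation initiation. Each group holds 4 libraries, which the design text calls biological replicates; the labels give genotype WT for both groups, and all results are from 1 cell line at 1 time. With nothing that names separate cultures, the errors below measure the spread between these libraries.

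Total counts per library were 43687828 to 64715535. All 12 adrenergic neuroblast markers checked, such as DBH, averaged at least 1 CPM (counts scaled to library size with TMM factors), and their summed level was 3131 to 4474 CPM with CR31B and 3124 to 4207 CPM with DMSO. Of 6 markers of blood cells and endothelium 0 reached 1 CPM, of 6 Schwann cell markers 1 did and of 8 mesenchymal markers 2 did. Sequencing was paired-end for replicate 1 of each group and single-end for the remaining 6 libraries. Over all genes the library labelled CR31B replicate 1 lay with the DMSO libraries of replicates 2 to 4 on the first principal component, and the library labelled DMSO replicate 1 lay with the CR31B libraries of those replicates. Replicate 1 is therefore shown apart throughout, no label was changed, and directions follow the labels of replicates 2 to 4. In RNA from a whole culture, a change in RNA per cell and a change in the share of cells that express a gene cannot be told apart.

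Promoter sequence was examined first. Fold changes of the 10 genes in replicates 2 to 4 ran from 0.997 for DUSP5 through 1.593 for SPRED1 and 2.361 for DUSP4 to 6.685 for DUSP6. They do not form separate classes, and the windows printed below are examples picked by these differences. RefSeq start sites (GRCh38.p14) were found for 8 of the 10 genes, with 11 windows of 250 bases before a start; DUSP4 and DUSP5 had none. Windows are shown 5′ to 3′ on the gene's strand for DUSP6 (chr12:89352502-89352751, minus strand) and SPRY2 (chr13:80341127-80341376, minus strand), 2 of the genes with the largest differences, and for DUSP1 (chr5:172771196-172771445, minus strand) and DUSP8 (chr11:1572272-1572521, minus strand), 2 with small ones. Capitals mark matches, on either strand, to the cyclic AMP response element TGACGTCA, to TGACG, which is contained in it, or to CCGGAA, a longer form of the ETS site GGAA.
DUSP6: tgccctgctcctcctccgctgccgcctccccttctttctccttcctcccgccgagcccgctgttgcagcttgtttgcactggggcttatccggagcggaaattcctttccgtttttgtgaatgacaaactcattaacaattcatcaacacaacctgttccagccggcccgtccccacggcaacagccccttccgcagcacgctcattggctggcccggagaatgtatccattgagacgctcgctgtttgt
SPRY2: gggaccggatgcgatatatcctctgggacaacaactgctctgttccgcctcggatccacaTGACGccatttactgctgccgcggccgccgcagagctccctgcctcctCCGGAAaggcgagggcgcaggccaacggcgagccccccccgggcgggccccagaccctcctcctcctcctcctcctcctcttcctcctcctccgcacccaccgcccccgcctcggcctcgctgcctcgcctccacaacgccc
DUSP1: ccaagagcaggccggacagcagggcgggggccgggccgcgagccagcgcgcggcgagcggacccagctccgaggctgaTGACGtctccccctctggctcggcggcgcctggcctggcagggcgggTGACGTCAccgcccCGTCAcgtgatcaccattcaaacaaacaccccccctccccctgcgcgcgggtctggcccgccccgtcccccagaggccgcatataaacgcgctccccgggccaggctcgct
DUSP8: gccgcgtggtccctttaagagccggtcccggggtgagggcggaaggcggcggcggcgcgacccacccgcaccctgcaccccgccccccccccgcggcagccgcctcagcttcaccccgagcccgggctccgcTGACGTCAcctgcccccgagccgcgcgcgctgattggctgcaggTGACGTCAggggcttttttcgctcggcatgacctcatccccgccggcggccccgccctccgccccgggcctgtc

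The element TGACGTCA occurred once in the DUSP1 window, at 125 to 118 bases before the start, and at 2 places in the DUSP8 window. It was in none of the other 9 windows of these genes, and 1.65% of all 35116 windows of this length hold it. DUSP1 and DUSP8 each had 4 matches to TGACG, overlapping ones included, and SPRY2 and SPRY4 1 each, where 21.2% of all windows hold at least 1. CCGGAA was found in 1 window each of SPRY1 and SPRY2 (14.5% of all windows). The AP-1 site TGANTCA (6.57% of all windows), the ATF4 composite site TGATGNAA (3.14%) and the CArG box of serum response factor (1.16%) had no match in any of the 11. The DUSP6 window has no match to any of the 6 motifs, which says only that these letters are not in it. Shorter ETS sequences, such as GGAA, were not searched for. The windows of SPRED1 and of DUSP7, whose difference was smaller than those of DUSP1 and DUSP8, had no match either. Windows precede RefSeq starts, which can differ from the GENCODE starts behind the gene positions given below. The distance between these starts was 770 bases for DUSP6, 2208 for SPRY4 and 510 for SPRED1, whose windows lie inside the gene span. Sequence before the GENCODE start of these genes was not examined. Some windows of SPRY1 and SPRY2 also lie inside the gene, among them the SPRY1 window with CCGGAA. For the other printed windows the distance was 0 for DUSP1, 175 for SPRY2 and 351 for DUSP8.

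Between the groups as labelled, with all 8 libraries and sequencing layout as a covariate, 0 of the 10 genes passed an adjusted p of 0.05 (edgeR quasi-likelihood test, Benjamini-Hochberg), against 0% of 16518 tested genes. At an unadjusted p under 0.05 the numbers were 0 of the 10 and 205 of all tested genes, and DESeq2 and limma voom also called 0. In this fit the median log2 fold change of the 10 genes was 0.40 and that of all tested genes 0.00. Within the 6 single-end libraries the same test called 8 of the 10 genes, all of them higher with CR31B. Over all 16696 genes tested there, 41.3% were called, 23.8% higher and 17.6% lower. Higher genes were thus 57.5% of the calls, but 40.03% with upper quartile and 43.1% with total count scaling. The median log2 fold change was 0.74 for the 10 genes and -0.01 for all tested genes. Since the genes were chosen with this contrast known, nothing is read from these shares.

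DUSP6 and DUSP7 encode phosphatases of the cytoplasm that act mainly on ERK. DUSP6 (ENSG00000139318, GRCh38 chromosome 12, 89347232 to 89353271, minus strand) had 3.67, 3.24 and 4.26 CPM in DMSO replicates 2, 3 and 4. The CR31B libraries with the same numbers had 19.2, 23.9 and 31.4 CPM, so the groups were far apart in these replicates. The log2 fold change was 2.74 ± 0.18 (SE, 3 libraries a group), the largest among the 10 genes. In replicate 1 the order was inverted, with 25.1 CPM in the library labelled DMSO and 3.51 CPM in that labelled CR31B, a log2 difference of -2.83. Over all 8 libraries the log2 fold change was 1.76 ± 0.95 (SE, 4 libraries a group). An antisense gene, ENSG00000274021, overlaps 40.5% of the exonic bases of DUSP6; it had 1 to 6 counts per library where DUSP6 had 198 to 1401.

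DUSP7 (ENSG00000164086, chromosome 3, 52048919 to 52056550, minus strand), the closest relative of DUSP6 among the 10, differed far less. Its levels were 56.5, 51.5 and 57.0 CPM in DMSO replicates 2 to 4 and 61.8, 63.4 and 64.7 CPM in the CR31B libraries. These groups did not overlap, but the log2 fold change was only 0.20 ± 0.056 (SE). Upper quartile scaling lowered it to 0.11. Replicate 1 had 64.2 CPM labelled DMSO and 55.0 CPM labelled CR31B.

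DUSP1, DUSP4, DUSP5 and DUSP8 were described next. DUSP1, DUSP4 and DUSP5 are nuclear phosphatases, of which DUSP5 acts on ERK alone, and DUSP8 acts mainly on JNK and p38. DUSP4 (ENSG00000120875, chromosome 8, 29333064 to 29350668, minus strand) had 12.3, 13.6 and 12.01 CPM in DMSO replicates 2 to 4 and 21.5, 36.3 and 31.6 CPM with CR31B. All 3 CR31B values lay above the DMSO values, and the log2 fold change was 1.24 ± 0.16 (SE). The spread with CR31B, 29.8 ± 7.56 CPM (SD, n = 3), was wider than with DMSO, 12.6 ± 0.838 CPM (SD, n = 3), with replicate 2 the lowest.

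DUSP1 (ENSG00000120129, chromosome 5, 172768090 to 172771195, minus strand), a classical immediate early gene, had 11.0, 9.29 and 10.6 CPM with DMSO and 13.9, 12.9 and 14.6 CPM with CR31B in replicates 2 to 4. The groups did not overlap there and the log2 fold change was 0.42 ± 0.092 (SE). In the library labelled DMSO replicate 1 it was 13.3 CPM, within the range of the CR31B libraries of the other replicates, and in that labelled CR31B replicate 1 it was 10.5 CPM.

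DUSP5 (ENSG00000138166, chromosome 10, 110497838 to 110511544, plus strand) was the only one of the 10 with no common direction. It had 6.08, 5.52 and 7.94 CPM with DMSO and 7.13, 4.42 and 7.95 CPM with CR31B in replicates 2 to 4. The log2 fold change was 0.00 ± 0.21 (SE). Differences within pairs were 0.07, 0.23, -0.32 and 0.00 for replicates 1 to 4, and this gene had no inversion in replicate 1.

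DUSP8 (ENSG00000184545, chromosome 11, 1554044 to 1571920, minus strand) had 7.47, 7.73 and 8.99 CPM with DMSO and 8.94, 9.41 and 11.3 CPM with CR31B in replicates 2 to 4. The groups overlapped, by the DMSO library of replicate 4, and the log2 fold change was 0.29 ± 0.11 (SE). Within pairs the difference was more even, at 0.26, 0.28 and 0.33. DUSP8 was called with replicate number as a block, but not in the same fit without the block.

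**Figure D1:**
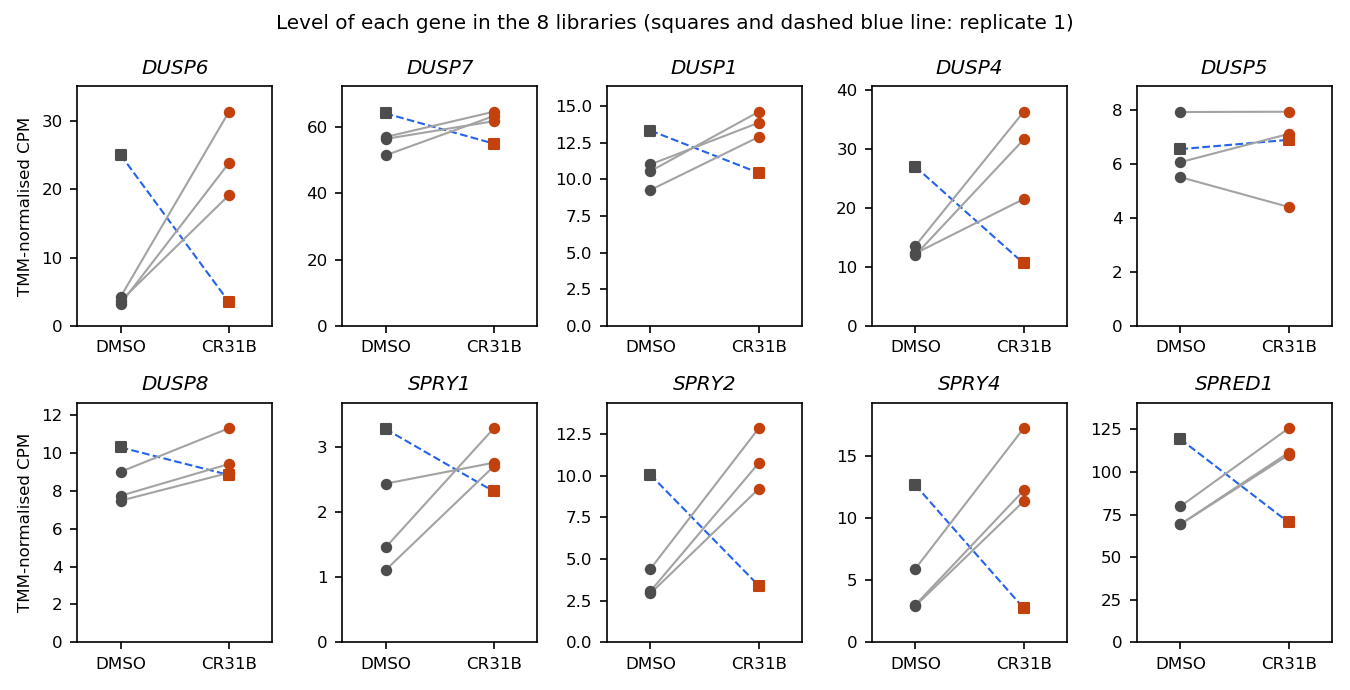
TMM-normalised CPM of each gene (vertical axis from 0, scaled per gene) in DMSO and CR31B libraries, with lines joining libraries of the same replicate number; squares and the dashed line are replicate 1. The line of replicate 1 runs against the others for every gene but DUSP5, for DUSP6 from 25.1 CPM labelled DMSO to 3.51 CPM labelled CR31B.

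Of the Sprouty genes, SPRY4 and SPRY2 showed the largest differences after DUSP6, while SPRY1 came below DUSP4. SPRY4 (ENSG00000187678, chromosome 5, 142310427 to 142326455, minus strand), an inhibitor of RAS activation by receptors, had 3.02, 2.95 and 5.94 CPM with DMSO and 12.2, 11.4 and 17.3 CPM with CR31B in replicates 2 to 4. Every CR31B library exceeded every DMSO library, and the log2 fold change was 1.79 ± 0.25 (SE). Replicate 4 had the highest level in both groups.

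SPRY2 (ENSG00000136158, chromosome 13, 80335976 to 80340951, minus strand), which binds the adaptor GRB2 and the ubiquitin ligase CBL, had 2.94, 3.08 and 4.42 CPM with DMSO and 9.23, 10.8 and 12.9 CPM with CR31B. The log2 fold change in these replicates was 1.66 ± 0.17 (SE), again with no overlap. Libraries labelled replicate 1 had 12.7 CPM of SPRY4 and 10.1 CPM of SPRY2 with DMSO, and 2.75 and 3.40 CPM with CR31B.

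SPRY1 (ENSG00000164056, chromosome 4, 123396795 to 123403760, plus strand) was the scarcest of the 10, with 75 to 157 counts per library. Its levels were 2.44, 1.11 and 1.46 CPM with DMSO and 2.76, 2.71 and 3.29 CPM with CR31B. The log2 fold change was 0.80 ± 0.25 (SE), but the pairs differed widely, at 0.18 in replicate 2 and 1.27 and 1.16 in replicates 3 and 4. Leaving out 1 library moved it to between 0.56, without DMSO replicate 3, and 1.19.

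SPRED1 (ENSG00000166068, chromosome 15, 38252326 to 38357249, plus strand) had the highest counts of the 10 and the most even difference. DMSO replicates 2 to 4 had 69.3, 69.1 and 79.7 CPM and the CR31B libraries 111, 110 and 126 CPM. The log2 fold change was 0.67 ± 0.073 (SE), and the 3 pairs gave 0.68, 0.67 and 0.66. With offsets for GC content and transcript length it was 0.42. At 38.9% GC the longest SPRED1 transcript is the poorest in GC among the 10. Replicate 1 gave a difference of -0.76.

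**Figure D2:**
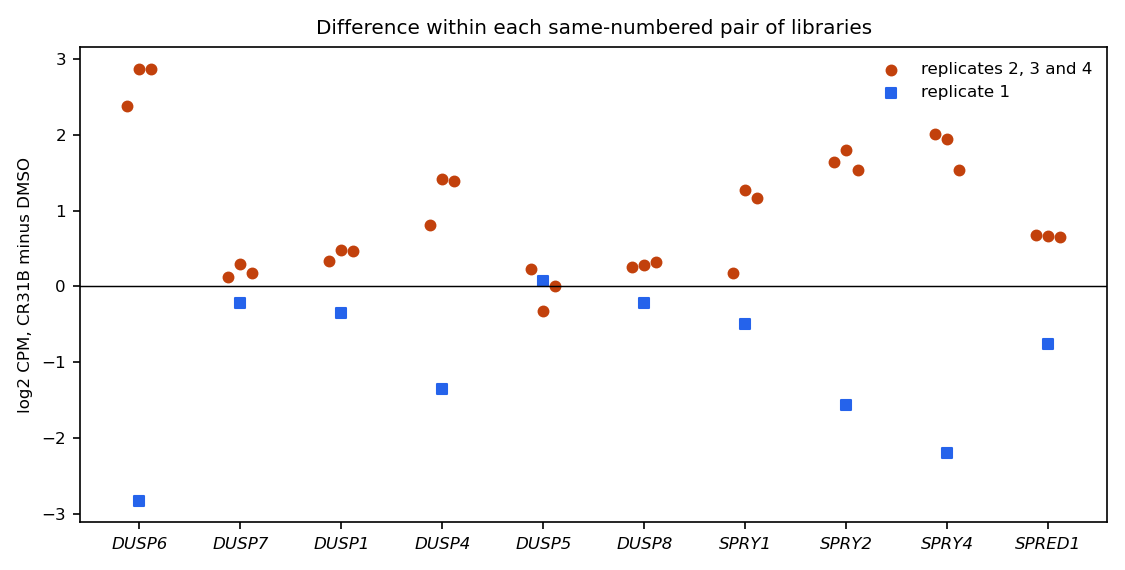
Difference in log2 CPM (CR31B minus DMSO, prior count 1) within each same-numbered pair of libraries, for the 10 genes; squares are replicate 1 and circles replicates 2, 3 and 4. DUSP6 has 2.38, 2.87 and 2.88 in replicates 2 to 4 and -2.83 in replicate 1, and DUSP5 stays near 0 in all 4.

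In 9 of the 10 genes the difference in replicate 1 had the opposite sign to that of replicates 2 to 4. The same held for 6822 of the 6901 genes called in replicates 2 to 4 over all tested genes. The inversion is therefore not particular to this group. SPRY4 had -2.20 in replicate 1, SPRY2 -1.56, DUSP4 -1.35, SPRY1 -0.50, DUSP1 -0.35, and DUSP7 and DUSP8 -0.22 each. An interaction of treatment with layout was called in 7 of the 10, against 42.5% of 16518 genes (edgeR quasi-likelihood test, Benjamini-Hochberg); the paired-end side holds 1 library per group, so the spread comes from the single-end libraries. Layout and replicate 1 are the same libraries and cannot be told apart. In replicates 2 to 4 all 3 libraries of one group lay above all 3 of the other in 8 of the 10 genes, always with CR31B above, while 52.1% of all tested genes had groups apart in either direction.

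Levels were then compared between genes as CPM per kb of exon, which corrects for length. In DMSO replicates 2 to 4, DUSP7 was highest at 9.74 ± 0.538 (SD, n = 3), followed by SPRED1 at 8.80 ± 0.735, DUSP1 at 5.10 ± 0.447 and DUSP5 at 2.49 ± 0.484. DUSP8 and DUSP4 were level at 1.75 ± 0.177 and 1.74 ± 0.115, followed by SPRY2 at 1.15 ± 0.268, DUSP6 at 0.804 ± 0.111, SPRY4 at 0.605 ± 0.260 and SPRY1 at 0.422 ± 0.174. Taking the sum of the SDs of 2 genes as their spread, neighbours in this order did not differ beyond it, except DUSP1 from SPRED1 above it and from DUSP5 below it, DUSP5 from DUSP8, and DUSP4 from SPRY2. On this scale the gene that gives the classical ERK gauge, DUSP6, was among the 3 scarcest brakes in DMSO replicates 2 to 4.

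With CR31B in the same replicates the order was SPRED1 at 14 ± 1.05 CPM per kb (SD, n = 3), DUSP7 at 11.2 ± 0.254, DUSP1 at 6.84 ± 0.428, DUSP6 at 5.36 ± 1.33, DUSP4 at 4.11 ± 1.04, SPRY2 at 3.61 ± 0.601, DUSP5 at 2.49 ± 0.708, DUSP8 at 2.14 ± 0.270, SPRY4 at 2.08 ± 0.484 and SPRY1 at 0.737 ± 0.0814. DUSP6 was in the eighth place with DMSO and in the fourth with CR31B, and did not differ beyond their spread from DUSP1 above it or DUSP4 below it. The neighbours that did were SPRED1 and DUSP7, DUSP7 and DUSP1, and SPRY4 and SPRY1. With the longest transcript as the length, DUSP7 (16.5 with DMSO, 18.95 with CR31B) stood above SPRED1 (9.35 and 14.9) in both groups, so their order depends on the length used. DUSP4 and DUSP8, level with DMSO per kb of exon, had 2.28 and 1.80 with that length. Of the summed CPM per kb of the 10 genes, DUSP6 made up 2.45%, 2.32% and 2.61% in DMSO replicates 2 to 4 and 8.501%, 10.2% and 11.6% with CR31B. SPRED1 had a share of 25.95% to 27.7% in all 8 libraries.

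**Figure D3:**
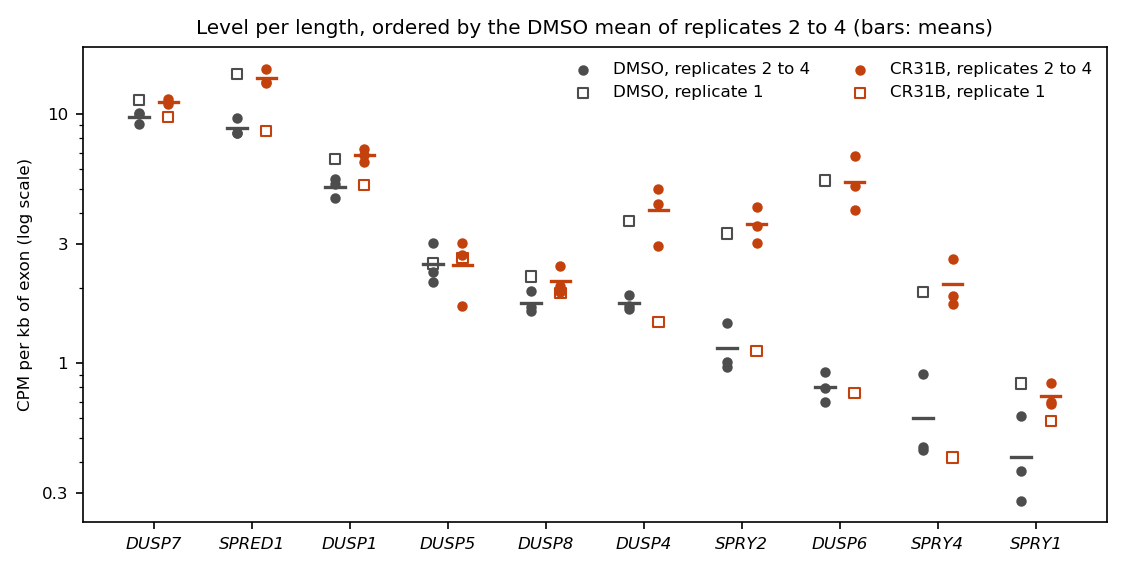
CPM per kb of exon (logarithmic axis) of each gene in DMSO (grey) and CR31B (orange) libraries; circles are replicates 2 to 4 with their mean as a bar, open squares replicate 1. The mean of DUSP6 is 0.804 with DMSO and 5.36 with CR31B, while that of DUSP5 is 2.49 in both, and the open squares lie near the circles of the other group.

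Outside the group, 10789 genes with a mean of at least 5 CPM were ranked by how closely they followed DUSP6 over the 8 libraries, and the nearest 5 are given. Likeness was the root mean square difference of log2 CPM, each gene centred on its own mean. CHAC1, which degrades glutathione, was closest at 0.254, followed by the cystine transporter SLC7A11 at 0.350, CXXC5 at 0.367, the transcription factor SOX2 at 0.462 and the AP-1 subunit JUN at 0.463. The same 5 genes came out of the 6 single-end libraries alone, which are part of the 8, so this is no separate check. The measure includes the difference between treatments, which for DUSP6 was known when the group was chosen. Within the group of brakes SPRY4 was nearest to DUSP6 at 0.483 and SPRY2 next at 0.566, and DUSP5 was farthest at 1.41.

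The 3′ UTR of many early genes carries AUUUA elements, which speed up decay of the messenger. Among the longest annotated 3′ UTRs (GENCODE 29), 9 of the 10 genes had at least 1 such element, as did 74.9% of 12966 tested protein-coding genes. SPRED1 had 24 in 5585 bases, SPRY4 8 in 3782, DUSP4 6 in 3962, and DUSP1 4 in only 672 bases. DUSP6, with the largest difference, had 1 in 2022 bases, and DUSP5, with none, had 0 in 1118. The median density was 1.87 per kb in the 10 genes and 1.55 per kb in all.

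Relatives outside the group were next examined in replicates 2 to 4. The pathway lists, too, were chosen with earlier results of these data known, so their counts and adjusted p values are a description. None of the genes named from here on passed in the fit of all 8 libraries as labelled. Of 7 further MAP kinase phosphatases, Sprouty and Spred genes, all tested, 5 rose and 0 fell (median log2 fold change 0.71). Over all tested genes 23.8% were higher, 17.6% lower and the median was -0.01. DUSP10, a phosphatase of JNK and p38, rose from 6.93 ± 0.598 to 15.6 ± 1.10 CPM (SD, n = 3), or by 1.18 ± 0.095 (SE) in log2 (adjusted p = 7.38e-06, edgeR with Benjamini-Hochberg adjustment). DUSP16, of the same substrate class, rose by 1.10 ± 0.11 on the log2 scale, again in edgeR with Benjamini-Hochberg adjustment (adjusted p = 3.83e-05). SPRED2, DUSP9 and SPRED3, named after their values were seen, rose by 0.74, 0.71 and 0.62, and SPRED3 was not called under 7 of 16 alternatives. DUSP2 had -0.69 ± 0.42 (SE) and SPRY3 0.15 ± 0.39, both under 1 CPM on average over the 8 libraries; DUSP2 was called with replicate number as a block (adjusted p = 0.0229, edgeR with Benjamini-Hochberg adjustment). All 5 risen genes had the opposite sign in replicate 1, DUSP10 with -0.90 and DUSP16 with -0.83.

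Atypical DUSP genes, small phosphatases that lack the kinase-binding domain, gave a mixed picture. Of 13 genes 10 were tested, 3 rose and 3 fell (median log2 fold change 0.07), or 60% called against 41.3% of all tested genes. DUSP14 rose by 0.80 ± 0.069 (SE) and DUSP26 by 0.51 ± 0.085, while DUSP28 fell by 0.39 ± 0.083 and DUSP18 by 0.45 ± 0.14, in log2. The fall of DUSP18 was not called without CR31B replicate 3, CR31B replicate 4, DMSO replicate 2 or DMSO replicate 4, and 34.4% of its exonic bases are overlapped by antisense genes.

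Upstream of the brakes, 9 of 16 tested growth factor receptors passed, 8 higher and 1 lower (19 listed, median 0.30), or 56.3% against 41.3% of all tested genes. PDGFRA, a receptor of platelet-derived growth factor, rose from 29.3 ± 1.64 to 66.6 ± 3.25 CPM (SD, n = 3), or by 1.19 ± 0.062 (SE) in log2 (adjusted p = 7.82e-07, edgeR with Benjamini-Hochberg adjustment); 15.8% of its exonic bases lie in another gene on its strand. NTRK3, a neurotrophin receptor, rose by 0.80 ± 0.25 (SE), a call lost with upper quartile scaling, DESeq2, GC and length offsets, or without CR31B replicate 3, DMSO replicate 2 or DMSO replicate 4. KIT, the stem cell factor receptor, fell by 0.58 ± 0.12. The number of receptors called was 14 with replicate number as a block and 5 with GC and length offsets, where 8540 and 6620 of all 16696 genes were called.

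Of the adaptors, RAS, RAF, MEK and ERK genes 23 of 24 were tested, 8 rose and 3 fell (median 0.03), or 47.8% called, a share near the 41.3% of all tested genes. With replicate number as a block 17 were called, as were 8540 of all 16696 genes. GAB1, a docking protein that recruits the phosphatase SHP2, rose from 26.0 ± 2.69 to 67.6 ± 8.20 CPM (SD, n = 3), or by 1.38 ± 0.098 (SE) in log2 (adjusted p = 3.89e-06, edgeR with Benjamini-Hochberg adjustment). SHOC2, a scaffold of RAF activation, rose by 0.83 ± 0.056. The adaptors FRS3 and SHC1 fell by 0.59 ± 0.094 and 0.33 ± 0.061.

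Other brakes on RAS and on receptors were tested in 13 of 14 cases, and 6 rose and 2 fell (median 0.14), or 61.5% called against 41.3% of all tested genes. RASAL2, a RAS GTPase-activating protein, rose by 0.85 ± 0.058 (SE), and ERRFI1, an inhibitor of the EGF receptor family that ERK signalling induces, by 0.74 ± 0.075. IL17RD, also known as SEF, fell by 0.57 ± 0.12, and PEBP1, a phosphatidylethanolamine-binding protein, by 0.41 ± 0.048.

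Of 14 messenger RNAs known to rise with ERK activity, outside the DUSP and Sprouty families, 13 were tested, and 3 rose and 1 fell (median 0.06). That is 30.8% called, against 41.3% of all tested genes, and the difference in shares was not tested. ETV5, an ETS transcription factor downstream of ERK, rose from 22.9 ± 4.41 to 72.4 ± 9.60 CPM (SD, n = 3), or by 1.66 ± 0.13 (SE) in log2 (adjusted p = 6.41e-06, edgeR with Benjamini-Hochberg adjustment). ETV1 rose by 1.13 ± 0.12, and MYC, named after its values were seen, by 1.08 ± 0.23 at 1.07 CPM on average. IER3 fell by 0.40 ± 0.12; that call was lost with GC and length offsets or without CR31B replicate 3, DMSO replicate 2 or DMSO replicate 4, and antisense genes overlap 26.5% of its exonic bases. FOS, EGR1 and CCND1, named for their role, did not pass, with log2 fold changes of -0.21 ± 0.26, 0.19 ± 0.54 and 0.06 ± 0.057. ETV4, named after its values were seen, did not pass either, at 0.03 ± 0.16 with 13.3 CPM on average. EGR1 spread widely, at 8.43 ± 4.47 CPM with CR31B and 7.43 ± 6.52 CPM with DMSO (SD, n = 3). Its log2 fold change ran from -0.29 to 1.18 over 16 alternatives, and it was called only without DMSO replicate 4. ETV5 had -1.95 and ETV1 -0.93 in replicate 1.

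**Figure D4:**
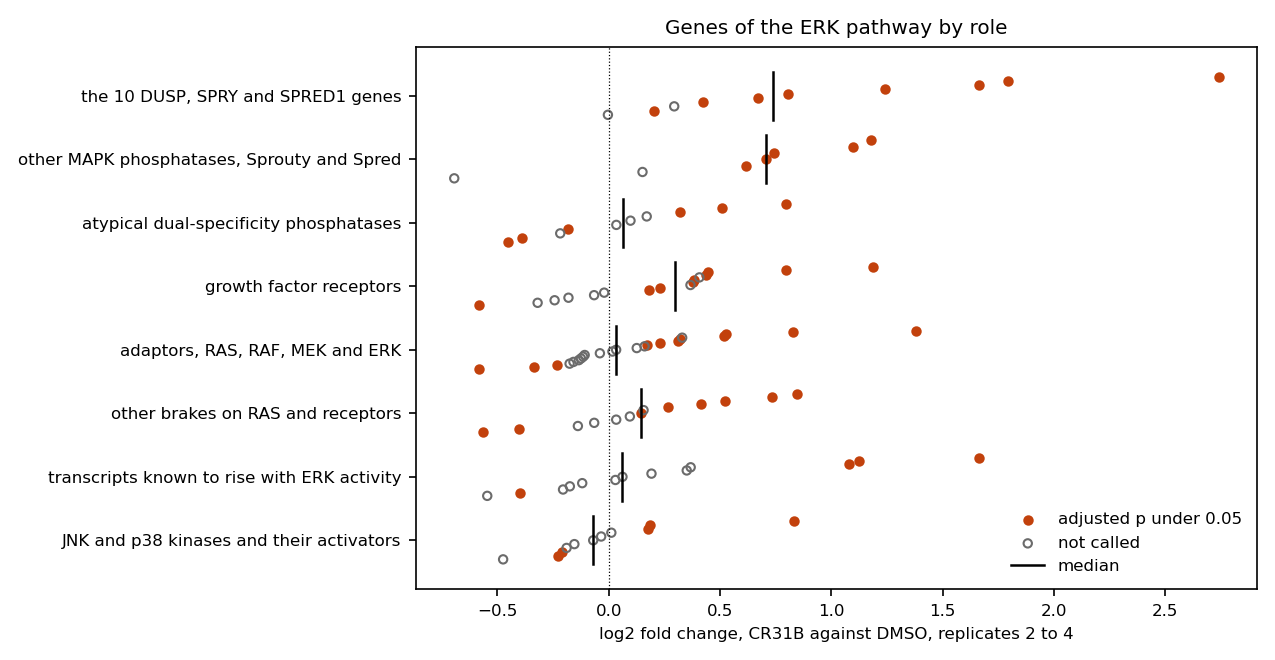
Log2 fold change in replicates 2 to 4 (horizontal axis) of every tested gene in 8 lists of the ERK pathway; filled points have an adjusted p under 0.05, open points do not, and the bar is the median of the list. The 10 genes described here have a median of 0.74 and their 7 relatives one of 0.71, and the other 6 lists lie between -0.07 and 0.30.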

How the data were processed

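The authors deposited raw, unnormalised counts for Ensembl gene identifiers, with 1 column per library. STAR 2.7.2b and GRCh38 are named in the submitters' processing notes. The deposited counts are labelled reverse, with no further detail on the strand setting. The counting tool and annotation are not given in the sources used here. Columns were matched to libraries by name; the header of CR31B replicate 4 lacks its first letter. Symbols, positions and exon lengths came from GENCODE 29 by identifier (58515 of 58787 matched).

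Counts were tested with edgeR 4.0.16 (R 4.3.3; filterByExpr, TMM, glmQLFit and glmQLFTest, two-sided, Benjamini-Hochberg over all tested genes), once with all 8 libraries and layout as a covariate and once within the 6 single-end libraries. Fold changes are edgeR log2 values; log2 CPM used a prior count of 1. The scripts were checked on simulated counts. Counts may include PCR duplicates, which were not measured, so depth gives only a lower bound on the counting error. Deviations of same-numbered single-end libraries correlated at 0.206, 0.384 and 0.157 (replicates 2, 3, 4). The highest correlation of each CR31B library with a DMSO library of another number was 0.089, -0.154 and -0.048. Same-numbered libraries were thus the most alike, but the correlations were weak and pairing was not tested. The main fit had no term for this pairing, which entered only in the alternatives with a replicate block. No libraries were duplicates (smallest mean chi-square per gene 7.28).

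The 10 genes and the pathway lists were chosen with earlier results of these data known. From each list up to 2 called genes per direction were named, those with the largest change at a mean of at least 1 CPM. Alternatives were DESeq2 1.42.0, voom in limma 3.58.1, scaling by RLE, by upper quartile or by total count, 2 different low-count filters, a replicate block, offsets for GC content and length, no layout term, and leaving out each library.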

Additional observations from a re-analysis of the deposited data

Results flagged for a closer look

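For 7 genes the difference in replicate 1 departed from that in replicates 2 to 4 by the interaction of treatment with layout (edgeR quasi-likelihood test, adjusted p under 0.05, Benjamini-Hochberg). The log2 difference of replicate 1 minus that of the others was -5.57 for DUSP6, -4.00 for SPRY4, -3.22 for SPRY2, -2.59 for DUSP4, -1.43 for SPRED1, -0.78 for DUSP1 and -0.42 for DUSP7. The same interaction was called in 7027 of all 16518 tested genes (42.5%), so it is not particular to these 7. With 1 paired-end library per group, the test takes its spread from the single-end libraries.

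Within the DMSO group, the library labelled replicate 1 lay far from the other 3 for DUSP6 and DUSP4. Its gap to the nearest other library, divided by the range of the group, was 0.953 for DUSP6 and 0.895 for DUSP4, above Dixon's 95% critical value for 4 samples. These are 2 of 20 such tests (10 genes in 2 groups), and chance alone gives about 1 in 20.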

How the results depend on the processing

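With all 8 libraries, 0 genes and 0 of the 10 brakes were called under every alternative that kept both replicate 1 libraries. Across the fits that each left out 1 library the numbers ran from 0 to 6920 genes and from 0 to 8 of the 10, with 6920 genes without CR31B replicate 1 and 6906 without DMSO replicate 1. When either replicate 1 library was left out, the layout term fitted the remaining paired-end library exactly. Such a fit therefore repeats that of the 6 single-end libraries, where 6901 genes were called, and says nothing about the library that stayed in. Within replicates 2 to 4 the number of the 10 called was 6 to 9 over 16 alternatives, where 5582 of 17073 to 8540 of 16696 tested genes were called, and nothing is read from it for genes chosen with this contrast known. DUSP6 ranged from 2.54 to 2.90, SPRY4 from 1.59 to 2.19 and DUSP5 from -0.17 to 0.22. With replicate number as a block (replicate pairing) 14 receptors and 17 adaptor, RAS, RAF, MEK and ERK genes were called, against 9 and 11 without it, and 9 of the 10 brakes against 8. GC and length offsets left 5 receptors. For JNK and p38 genes, leaving out 1 library gave 3 to 6 calls, 3 without DMSO replicate 4. The cause of these shifts was not tested. The share of higher calls among all genes was 57.5% with TMM, 40.03% with upper quartile scaling and 43.1% with total counts, and upper quartile scaling moved the median of all genes from -0.01 to -0.10. Depth as a limit for the genes with the lowest counts was not tested.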

Other observations

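DUSP1, DUSP8, DUSP10 and DUSP16 also act on the stress kinases JNK and p38, whose genes were listed with their activating kinases. In replicates 2 to 4 all 11 were tested, 3 rose and 2 fell (edgeR quasi-likelihood test, Benjamini-Hochberg), with a median log2 fold change of -0.07; that is 45.5% called, near the 41.3% of all tested genes. MAPK14, the gene of p38 alpha, rose from 55.6 ± 0.912 to 98.8 ± 1.39 CPM (SD, n = 3), a log2 fold change of 0.83 ± 0.046 (SE), and had -0.97 in replicate 1. MAPK9, the gene of JNK2, rose by 0.19 ± 0.045, a call lost with upper quartile scaling, total counts and GC and length offsets, with or without the block. MAPK8, the gene of JNK1, fell by 0.23 ± 0.051, and by 0.45 with GC and length offsets. MAP2K7, a kinase that activates JNK, fell by 0.21 ± 0.061, a call lost without DMSO replicate 2 or DMSO replicate 4.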
